A study of Mus musculus with 4 samples.

Results

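Genes of 3 small-molecule sensing systems were followed in regulatory T cells (Treg cells) sorted from the mouse large intestine (LI) in which the histone methyltransferase gene *Setd2* had been deleted. The 10 genes, *Ahr*, *Arnt*, *Tiparp*, *Ahrr*, *Cyp1a1*, *Cyp1b1*, *Rara*, *Rarg*, *Rxra* and *Vdr*, were chosen by name and not by any measured value, and each was found as 1 entry among the 53379 genes of the expression table. Setd2 places the trimethyl mark on lysine 36 of histone H3. RNA of 4 libraries was sequenced, 2 control (*Foxp3* Cre-YFP *Setd2* f/+) and 2 KO (*Foxp3* Cre-YFP *Setd2* f/f), all C57BL/6 and at steady state. In all 4 libraries the cells carried Cre with a yellow fluorescent protein at *Foxp3*, so both groups lost floxed *Setd2* only where *Foxp3* was or had been active, and the control cells kept 1 intact *Setd2* copy and are not wild type. CD3+CD4+YFP+ cells of 2 to 3 mice were pooled for each library, about 200000 cells per the labels, whereas the study's methods give a larger number. The study's methods describe littermate control or KO mice, age-matched young adults of either sex unless otherwise specified. The comparison of KO with control asked how loss of *Setd2* in Treg cells was accompanied by changes in the level of each transcript.

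The aryl hydrocarbon receptor (AhR) waits in the cytoplasm with heat shock protein 90 and other chaperones. Planar molecules from diet, microbes and tryptophan breakdown bind it, and it then enters the nucleus, pairs with Arnt and binds DNA at a short core, GCGTG. Its targets include the Cyp1 enzymes, which break such ligands down, and the feedback genes *Tiparp* and *Ahrr*. Retinoic acid, made from vitamin A by cells of the gut, acts through the retinoic acid receptors (*Rara*, *Rarb*, *Rarg*), which pair with a retinoid X receptor, and active vitamin D acts through Vdr, which also pairs with a retinoid X receptor. In the intestine AhR and retinoid signals are known for their part in gut homing and in the upkeep of lymphocytes at the barrier, and intestinal Treg cells are known to use AhR.

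Sequences upstream of the start sites are shown for genes that read out AhR activity, since the AhR core lies there and their levels are described below. They come from RefSeq promoter windows (GRCm38.p6), of which 9 of the 10 genes had 1 or more, and *Ahr* had none. Each is written 5′ to 3′ on the gene's own strand, in lower case, with the core GCGTG or its complement CACGC in capitals. The *Tiparp* stretch of 213 bases is chr3:65528197-65528409 on the plus strand and ends just before the first annotated start. The *Ahrr* stretch of 250 bases is chr13:74292332-74292581 on the minus strand. For the enzymes, only the core with its flanks is given, at chr9:57697547-57697575 on the plus strand for *Cyp1a1* and at chr17:79715121-79715149 on the minus strand for *Cyp1b1*.
Tiparp: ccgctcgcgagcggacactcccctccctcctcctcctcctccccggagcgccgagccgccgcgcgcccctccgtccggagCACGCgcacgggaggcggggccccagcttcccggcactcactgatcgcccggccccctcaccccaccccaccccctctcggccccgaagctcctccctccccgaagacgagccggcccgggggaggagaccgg
Ahrr: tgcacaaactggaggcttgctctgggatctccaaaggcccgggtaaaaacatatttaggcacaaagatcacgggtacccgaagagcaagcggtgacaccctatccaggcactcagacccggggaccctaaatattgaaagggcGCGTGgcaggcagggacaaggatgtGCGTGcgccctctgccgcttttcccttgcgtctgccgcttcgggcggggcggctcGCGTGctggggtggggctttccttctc
Cyp1a1: tcagataaggagGCGTGgccaacagacac
Cyp1b1: cgtcccgcccctCACGCcccaccccctaa

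Counted from the RefSeq start, the core began at -170 in *Tiparp*, at -54 in *Cyp1a1* and at -76 in *Cyp1b1*, and *Ahrr* held 3 cores, at -107, -82 and -27. Among the 9 genes with a window, 8 had a core on either strand within 250 bases upstream of at least 1 start. *Arnt*, *Vdr*, *Rara* and *Rarg* were the other 4, and *Rxra* had none. Counted by window, since *Rara*, *Rarg* and *Rxra* have several starts, 8 of 14 held the core (57.1%). Over 32851 windows of this length, 28.2% held the core and 8.63% held 2 or more. The nuclear receptor hexamer AGGTCA or its complement TGACCT was found in 2 of the 14 windows (14.3%), 1 each of *Rarg* and *Rxra*, against 14.02% of all windows. Core and hexamer can share up to 2 letters where they adjoin. A match describes the letters and is not a measured binding site.

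Levels are given in FPKM (fragments scaled by transcript length and by the total of the library), a unit per length, so that levels of different genes can be set side by side. Every library had nearly the same distribution of values, with sums from 774923 to 774999. The same value stood in all 4 libraries at 2172 of the 5000 highest ranks. At those ranks the values of the 4 libraries differed by at most 0.173%. The values were thus brought to nearly 1 common distribution by a further normalization that is not described. A difference in the whole distribution between groups could not show in them. Read depth could not be recovered and is unknown. Pearson's r of log2(FPKM + 1) over the genes tested was 0.982 between the controls, 0.985 between the KO libraries and 0.967 to 0.977 between groups. *Setd2* itself was 38.19 and 27.36 FPKM in the control libraries and 26.33 and 36.30 in the KO libraries, a value over the whole gene that overlapped between groups and could not check the genotypes, so control and KO mean the libraries so labelled. Of the Treg markers, 5 of 6 were above 5 FPKM in every library, with *Foxp3* lower in some at 2.62 to 5.61. The summed level of the Treg markers was 2212 to 2409 in control and 2756 to 2867 in KO with *Ctla4*, the highest of them, and 619 to 709 and 556 to 597 without it. *Ctla4* was 1593.26 and 1700.67 FPKM in control and 2159.97 and 2310.35 in KO, whereas *Ikzf2* (120.75 and 115.57, 84.12 and 98.36) and *Il2ra* (183.66 and 180.37, 152.14 and 162.77) were lower in both KO libraries. Markers of other cells also differed in level between groups. Summed over each list, 7 myeloid markers gave 611 to 735 FPKM in control and 799 to 806 in KO, 4 stromal and endothelial markers 35.8 to 37.4 and 43.6 to 50.4, 7 epithelial markers 33.2 to 35.4 and 27.7 to 28.6, and 6 markers of CD8 T, natural killer and innate lymphoid cells 20.2 to 21.6 and 14.2 to 15.3, while 4 B and plasma cell markers overlapped at 121 to 165 and 115 to 172. Each of these sums was led by 1 gene. Without *H2-Ab1* the myeloid sum was 202 to 220 in control and 201 to 253 in KO, without *Pecam1* the stromal and endothelial sum was 1.09 to 1.13 and 0.91 to 1.18, and without *Kit* the lymphoid sum was 2.81 to 3.71 and 2.84 to 3.14, so that these groups overlapped. Without *Jchain* the B and plasma cell sum was 2.11 to 4.88 and 2.77 to 3.62. In the epithelial list *Epcam* was 28.65 and 30.81 FPKM in control and 19.58 and 21.13 in KO, and without it the sum turned, at 4.54 to 4.62 in control and 7.43 to 8.08 in KO, with *Krt18* (4.23 and 4.52, 7.22 and 7.18) its largest part. Defining markers were below 1 FPKM in every library in each of these lists: *Itgax* (myeloid), *Col1a1*, *Col3a1* and *Pdgfra* (stromal), *Cdh1*, *Muc2*, *Vil1*, *Krt20* and *Krt8* (epithelial), *Cd8a*, *Ncr1*, *Eomes* and *Klrb1b* (lymphoid), and *Ms4a1* (B cell). Their part in the results that follow was not tested, and in bulk RNA fewer cells of a type and less RNA per cell cannot be told apart.

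The 10 genes spanned a wide range of levels. *Tiparp* was the highest, at rank 369 of 21865 protein-coding genes by its mean over the 4 libraries, followed by *Arnt* at rank 2178 and *Ahr* at rank 3885. *Rara* (rank 6581) and *Ahrr* (rank 7124) lay near 5 FPKM, and *Vdr*, *Cyp1a1*, *Rxra*, *Rarg* and *Cyp1b1* lay below it. In this order, neighbours overlapped over the 4 libraries for *Rara* and *Ahrr*, for *Cyp1a1* and *Rxra*, and for *Rxra* and *Rarg*, and each other step down was between ranges that did not overlap. A gene entered the test when its mean was above 5 FPKM in either group. The 5 genes above that limit, *Tiparp*, *Arnt*, *Ahr*, *Rara* and *Ahrr*, passed it in both groups, and 3 of the other 5, *Rxra*, *Rarg* and *Cyp1b1*, were below 1 FPKM in every library. The median level of the 7639 genes tested was 22.8 FPKM in both groups, so *Ahr* stood near the middle of the expressed genes, *Tiparp* far above it and *Rara* and *Ahrr* below it.

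**Figure D1:**
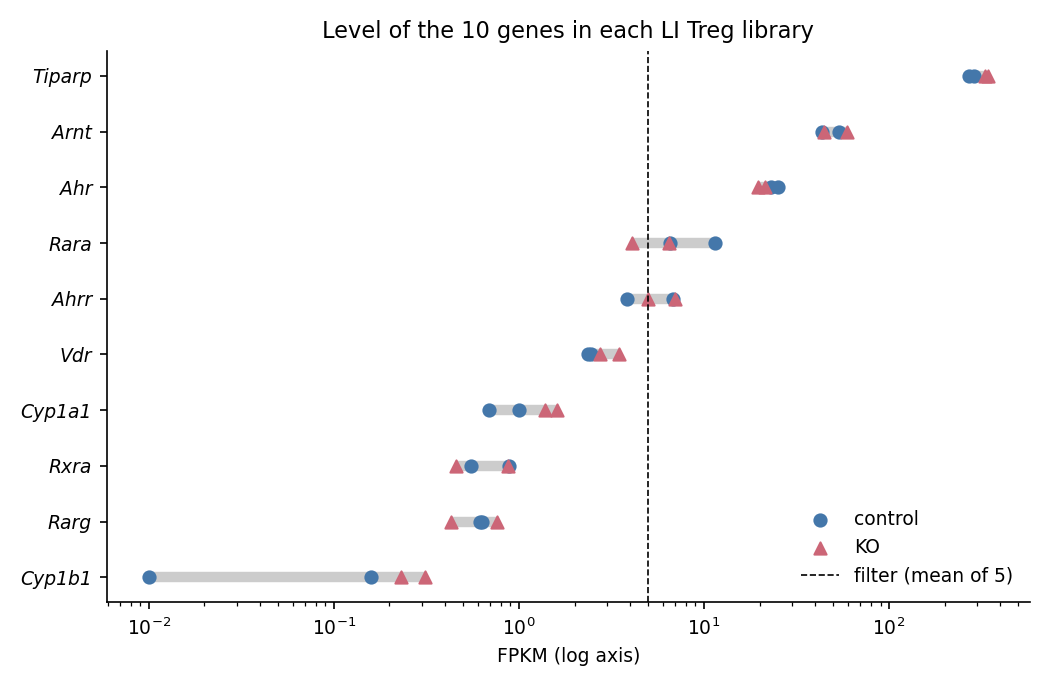
FPKM (log axis) of the 10 genes in each of the 4 libraries, control as circles and KO as triangles, with a grey bar over the range of the 4 values and a dashed line at the mean of 5 FPKM used as the filter. *Tiparp* lies between 270.24 and 341.67, *Arnt* and *Ahr* lie between 19.63 and 59.61, and *Cyp1b1* reaches 0.01 in control 2.

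None of the 10 genes passed limma's test at an adjusted p below 0.05 in either direction. Over all genes tested, 0.314% were called higher in KO and 0.275% lower by that rule (24 and 21 of 7639). At an unadjusted p below 0.05, the rule the study used for this comparison, 1 of the 5 tested, *Tiparp*, was called higher and none lower, against 8.61% and 7.57% of all genes. With 2 libraries a group, an exact permutation test over libraries cannot go below 0.33, so all p-values here come from the limma fit across genes.

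*Tiparp* encodes a poly(ADP-ribose) polymerase family enzyme that is induced by AhR and modifies AhR to shut it down. It lies at chr3:65528410-65555518 on the plus strand of GRCm38 (ENSMUSG00000034640). Its level was 289.10 and 270.24 FPKM in the control libraries and 330.34 and 341.67 in the KO libraries. Both KO libraries were above both controls, and the gap between groups was wider than the spread within either. The mean was 279.7 ± 13.3 FPKM in control and 336 ± 8.01 in KO (SD, n = 2 each), 20.1% higher in KO. On the log2(FPKM + 1) scale this was a fold change of 0.26 (standard error, SE, 0.11, 95% interval 0.02 to 0.51; limma adjusted p = 0.283). It stood at rank 1041 of 7639 by p. The log2 fold change was 0.22 to 0.31 in the alternative runs. As the groups did not overlap, leaving out a library could not turn its sign. It was 0.22 without control 2, 0.29 without KO 1 and 0.24 without KO 2. Without the mean-variance trend (0.26), limma's unadjusted p was no longer below 0.05.

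*Ahr*, the receptor itself, lies at chr12:35497974-35535038 on the minus strand (ENSMUSG00000019256). Its level was 25.00 and 23.13 FPKM in control and 19.63 and 21.45 in KO. Both KO libraries were below both controls, with means of 24.1 ± 1.32 and 20.5 ± 1.29 FPKM (SD, n = 2 each), a difference of -14.6%. The log2 fold change was -0.22 (SE 0.14, 95% interval -0.56 to 0.12; limma adjusted p = 0.498). In the alternative runs it was -0.28 to -0.16. As the groups did not overlap, leaving out a library could not turn its sign. In the runs that kept all 4 libraries, limma's unadjusted p was never below 0.05. The receptor and its feedback gene *Tiparp* thus lay on opposite sides of the control libraries, neither by an amount that passed the adjusted test.

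*Arnt*, the partner that AhR needs to bind DNA, lies at chr3:95434388-95497240 on the plus strand (ENSMUSG00000015522). It was 43.25 and 53.45 FPKM in control and 59.61 and 44.78 in KO, so the groups overlapped. The means were 48.4 ± 7.21 and 52.2 ± 10.5 FPKM (SD, n = 2 each), and the log2 fold change was 0.10 (SE 0.18, 95% interval -0.31 to 0.52; limma adjusted p = 0.832). Its sign turned without control 1 (-0.05) and without KO 1 (-0.10).

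*Ahrr* encodes the AhR repressor, a relative of AhR that pairs with Arnt in its place. It lies at chr13:74211118-74292331 on the minus strand (ENSMUSG00000021575), just downstream of the sequence with 3 cores printed above. Its level was 6.77 and 3.83 FPKM in control and 5.01 and 6.99 in KO, with control 1 close to KO 2, and the groups overlapped. The means were 5.30 ± 2.08 and 6.00 ± 1.40 FPKM (SD, n = 2 each), with a log2 fold change of 0.18 (SE 0.29, 95% interval -0.51 to 0.87; limma adjusted p = 0.824). The sign turned without control 2 (-0.17) and without KO 2 (-0.03).

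The Cyp1 enzymes, the classic targets of AhR, were barely expressed. *Cyp1a1* (ENSMUSG00000032315, chr9:57687928-57703824, plus strand) was 0.69 and 1 FPKM in control and 1.38 and 1.61 in KO, with means of 0.845 ± 0.219 and 1.495 ± 0.163 (SD, n = 2 each). Both KO values were above both controls, a ratio of means of 1.77, at levels too low to enter the test. When the filter was lowered to a mean of 1 FPKM, the log2 fold change of *Cyp1a1* was 0.44 (SE 0.27; limma adjusted p = 0.485).

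*Cyp1b1* (ENSMUSG00000024087, chr17:79701537-79715061, minus strand) was 0.16 and 0.01 FPKM in control and 0.23 and 0.31 in KO. Control 2 listed 0.01 for 4272 genes and the other 3 libraries listed it for none, so no fold is given. With no filter, the difference in log2(FPKM + 1) was 0.23 (SE 0.09; limma adjusted p = 0.494).

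**Figure D2:**
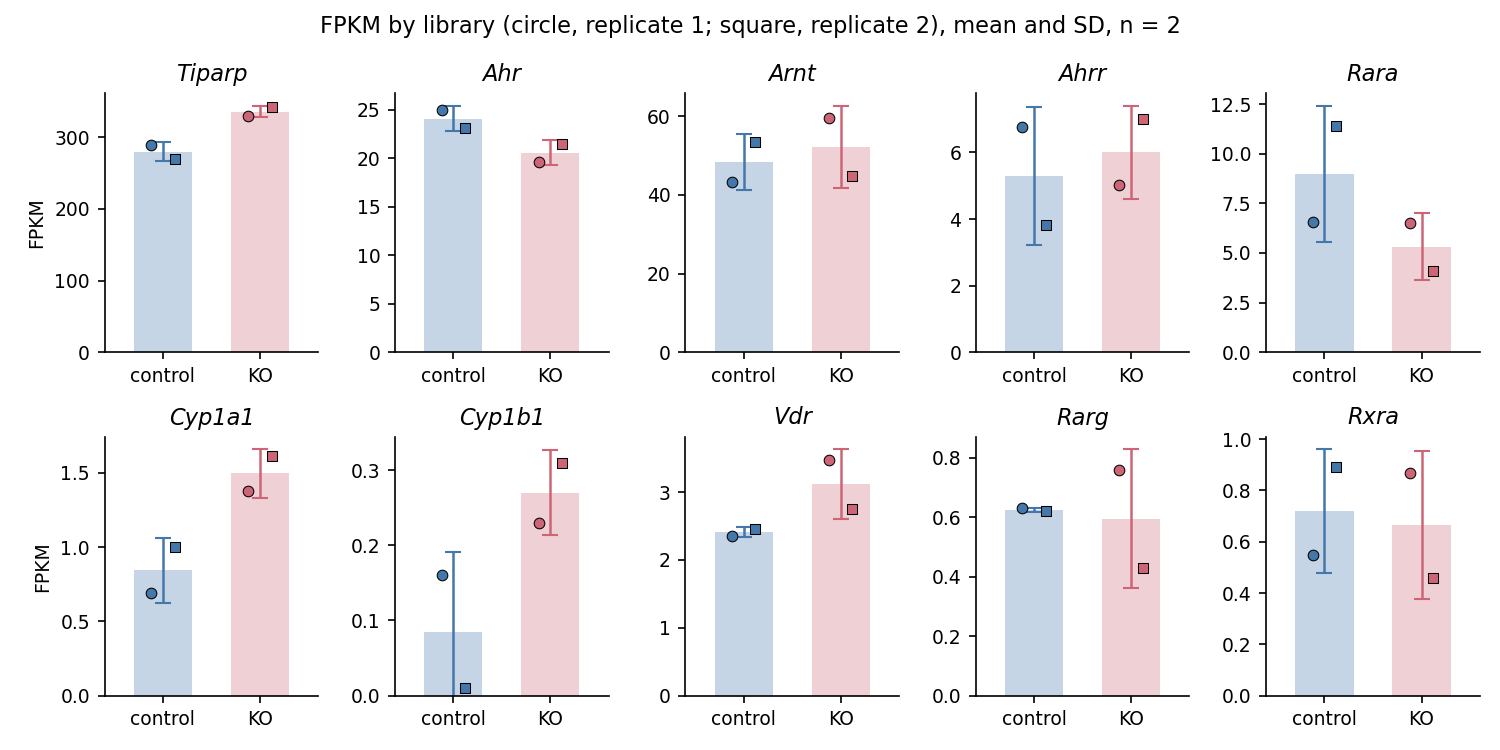
FPKM of each of the 10 genes, a panel a gene with its own axis from 0: bars are means, error bars SD (n = 2, cut at 0 for *Cyp1b1*), circles replicate 1 and squares replicate 2, blue for control and red for KO. KO lies above control without overlap for *Tiparp*, *Cyp1a1*, *Cyp1b1* and *Vdr*, below it for *Ahr* and *Rara*, and the groups overlap for *Arnt*, *Ahrr*, *Rarg* and *Rxra*.

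*Rara*, the retinoic acid receptor known as the main one of T cells, was the highest of the RAR and RXR genes here at chr11:98927818-98974942 on the plus strand (ENSMUSG00000037992). It was 6.56 and 11.41 FPKM in control and 6.51 and 4.11 in KO. The groups did not overlap, but control 1 and KO 1 differed by far less than the 2 libraries of either group. The means were 8.99 ± 3.43 FPKM in control and 5.31 ± 1.70 in KO (SD, n = 2 each), a difference of -40.9%. The log2 fold change was -0.64 (SE 0.31, 95% interval -1.36 to 0.07; limma adjusted p = 0.354). Its size rested on control 2 and KO 2: it was -0.29 without control 2 and -0.37 without KO 2, and -1.002 without control 1 and -0.92 without KO 1, where the unadjusted p was below 0.05.

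*Rarg* (ENSMUSG00000001288, chr15:102234938-102257517, minus strand) and *Rxra* (ENSMUSG00000015846, chr2:27676440-27762957, plus strand) encode another retinoic acid receptor and a retinoid X receptor, the shared partner of RAR and Vdr. *Rarg* was 0.63 and 0.62 FPKM in control and 0.76 and 0.43 in KO. *Rxra* was 0.55 and 0.89 in control and 0.87 and 0.46 in KO. Both were below 1 FPKM in every library with overlapping groups, and with no filter the differences in log2(FPKM + 1) were -0.03 and -0.05 (limma adjusted p = 0.932 for both). Of the other receptors of these families, *Rxrb* was 3.99 and 5.18 FPKM in control and 3.56 and 2.82 in KO, *Rxrg* was at most 0.80 and *Rarb* at most 0.04. These 3 were named after their values were seen, to complete the families, and *Rxrb* was the most abundant retinoid X receptor transcript in every library.

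*Vdr*, the vitamin D receptor, lies at chr15:97854425-97910630 on the minus strand (ENSMUSG00000022479). It was 2.36 and 2.46 FPKM in control and 3.48 and 2.75 in KO. Both KO libraries were above both controls, with means of 2.41 ± 0.0707 and 3.12 ± 0.516 FPKM (SD, n = 2 each) and a ratio of 1.29, under the filter of the test. With the filter at a mean of 1 FPKM the log2 fold change was 0.27 (SE 0.24; limma adjusted p = 0.636).

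Read over all 10 genes, KO was above control with no overlap for 4 and below it for 2. Among the 5 tested, this was 1 higher and 2 lower, where 24.2% of all genes tested lay higher without overlap and 22.9% lower. Among the 5 below the filter it was 3 higher and none lower, where 23.4% of 5509 protein-coding genes below the filter with a mean above 0.1 FPKM lay higher and 15.8% lower.

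**Figure D3:**
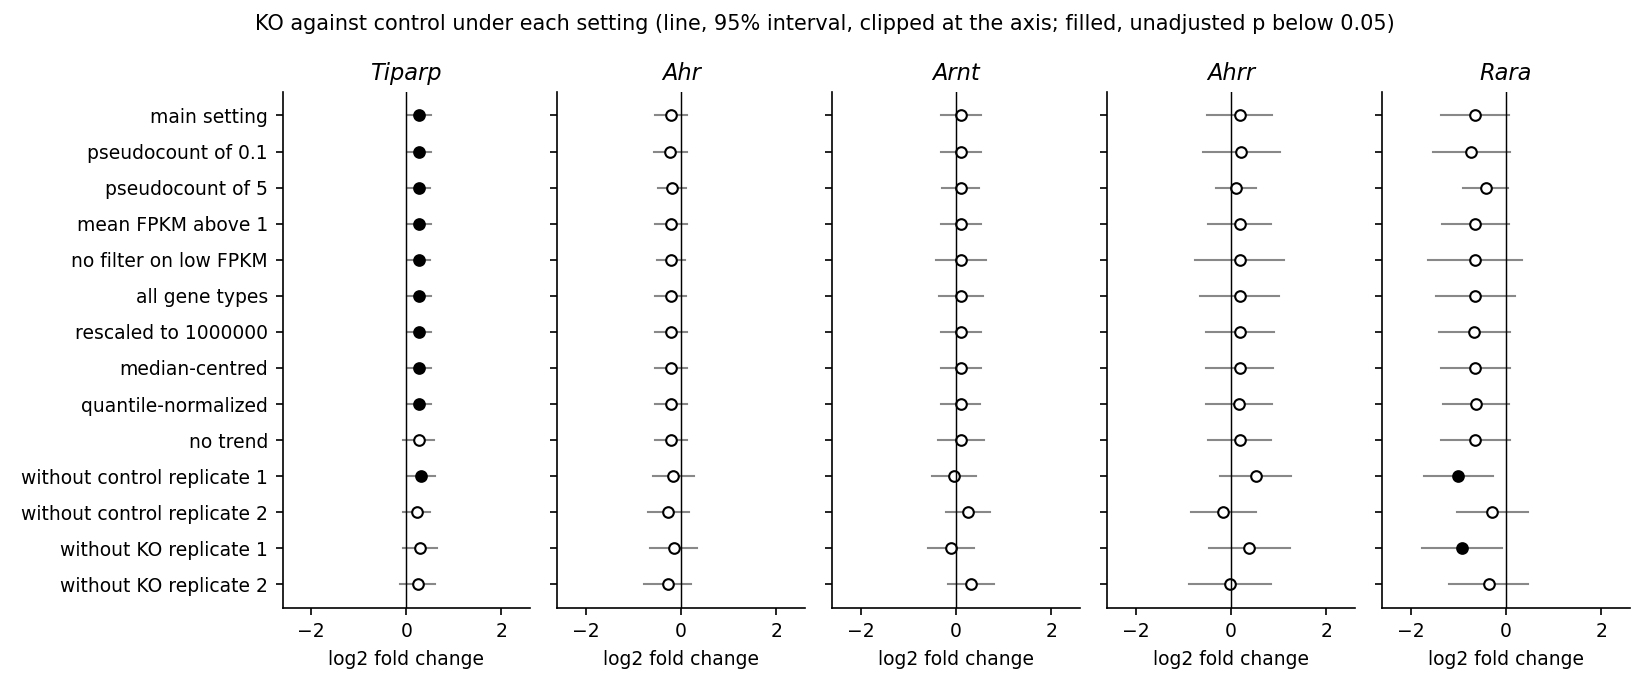
log2 fold change of KO over control for the 5 genes tested, a panel a gene, in the main setting and in alternative settings of the pseudocount, filter, scaling, variance model and libraries, with 95% intervals (cut at the axis ends) and filled points where the unadjusted p was below 0.05. *Tiparp* lies right of 0 and *Ahr* and *Rara* left of 0. Their groups do not overlap, which fixes the sign when a library is left out. *Arnt* and *Ahrr*, whose groups overlap, cross 0 when a library is left out.

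The surroundings of the 10 genes were described with lists of 86 other genes of the same systems, of which 32 were tested and 37 were below 1 FPKM in every library. None passed limma's test at an adjusted p below 0.05. The fold change was positive for 14 of 32, and the median log2 fold change was -0.04. Over all genes tested, 3772 of 7639 were positive and the median was -0.0039. At an unadjusted p below 0.05, 5 of the 32 were higher in KO and 2 lower, where 8.61% of all genes tested were called higher and 7.57% lower. These shares also stand beside the counts of the single lists below. With a library left out, the counts by this rule were 3 higher (*Il22*, *Ccr9* and *Cdkn1a*) and 1 lower without KO 2, 5 higher and 1 lower without control 1, and 4 higher and 4 lower without KO 1. The call was lost for *Gstt2* without control 2, KO 1 or KO 2, *Dhrs3* without control 1, KO 1 or KO 2, and *Gpr15* without KO 2.

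Of 11 genes known as AhR targets 6 were tested. All 6 had a positive log2 fold change, with a median of 0.31, beside 3772 positive genes among the 7639 tested. Unadjusted p was below 0.05 for 3 of the 6, each higher in KO. The share of higher genes by that rule was 8.61% over the whole test. *Il22*, a cytokine that acts on epithelium, was 35.53 and 31.08 FPKM in control and 60.17 and 58.07 in KO, with the KO libraries far above both controls. Its log2 fold change was 0.81 (SE 0.13; limma adjusted p = 0.0557). *Gpr15*, a receptor for homing to the large intestine, was 130.60 and 135.85 FPKM in control and 169.48 and 198.66 in KO, 0.46 higher on the log2 scale (SE 0.12; limma adjusted p = 0.144). *Gstt2*, a glutathione transferase, was 42.19 and 38.78 FPKM in control and 54.24 and 51.00 in KO (0.37 on the log2 scale, SE 0.13; limma adjusted p = 0.222). The classic targets *Cyp1a2* and *Aldh3a1*, named after their values were seen, were listed at 0 in every library, and the list was drawn up with earlier results known.

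Among the partners and chaperones of AhR reported here, 4 of 5 were tested and 1 had an unadjusted p below 0.05. The list is not complete, so no median is given for it. *Hsp90aa1*, the inducible heat shock protein 90 of the cytoplasmic AhR complex, was 1497.32 and 1257.48 FPKM in control and 1014.93 and 1031.87 in KO, a difference of -0.42 on the log2 scale (SE 0.12; limma adjusted p = 0.175). The groups did not overlap. *Arnt2*, the relative of *Arnt*, was 0.70 and 0.54 FPKM in control and 1.34 and 1.63 in KO and was not tested. Of 8 genes for making or importing tryptophan-derived ligands, only the transporter subunit *Slc3a2* was tested, with a log2 fold change of -0.0011. *Arnt2* and *Slc3a2* were named after their values were seen.

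On the retinoid side, 7 of 12 receptors and coregulators were tested. All 7 were coregulators, as the receptors of this list, *Rarb*, *Rxrb* and *Rxrg*, lay below the filter. Of the 7, 3 were positive, the median log2 fold change was -0.06 and none had an unadjusted p below 0.05. Of 18 genes for retinoid metabolism and binding, 13 were below 1 FPKM in every library. These included *Aldh1a1*, *Aldh1a2* and *Aldh1a3*, which make retinoic acid, and the Cyp26 enzymes, which degrade it. Of the 3 tested none was positive, with a median of -0.23. *Dhrs3*, an enzyme that turns retinal back to retinol, was 90.44 and 79.37 FPKM in control and 69.19 and 68.97 in KO, a difference of -0.29 on the log2 scale (SE 0.12; limma adjusted p = 0.302). *Ccr9*, a gut homing receptor induced by retinoic acid, was 24.69 and 28.75 FPKM in control and 45.08 and 43.14 in KO. The log2 fold change of *Ccr9* was 0.71 (SE 0.14; limma adjusted p = 0.0816), while the other 2 retinoid targets tested were below 0, and the median of the 3 was -0.03.

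Vitamin D genes gave few tested members. Of 6 for metabolism and transport 1 was tested, *Dhcr7*, which turns the precursor of vitamin D to cholesterol, with a log2 fold change of -0.53 that did not pass at an unadjusted p below 0.05. *Cyp27b1*, which makes the active hormone, was at most 0.10 FPKM, and *Cyp24a1*, the enzyme that Vdr strongly induces, at most 0.01. Of 8 Vdr targets 3 were tested and all 3 were positive, with a median of 0.24, and 1 had an unadjusted p below 0.05. That gene, *Cdkn1a*, an inhibitor of the cell cycle that many signals induce, was 823.91 and 816.30 FPKM in control and 1108.36 and 1077.12 in KO (0.41 on the log2 scale, SE 0.10; limma adjusted p = 0.126). *Cd14*, another of the 3, also stands in the myeloid marker list. Among 12 other nuclear receptors of the class that pairs with RXR, 4 were tested, 1 was positive, the median was -0.07 and none passed. *Dhcr7*, *Cyp27b1*, *Cyp24a1* and *Cd14* were named after their values were seen.

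**Figure D4:**
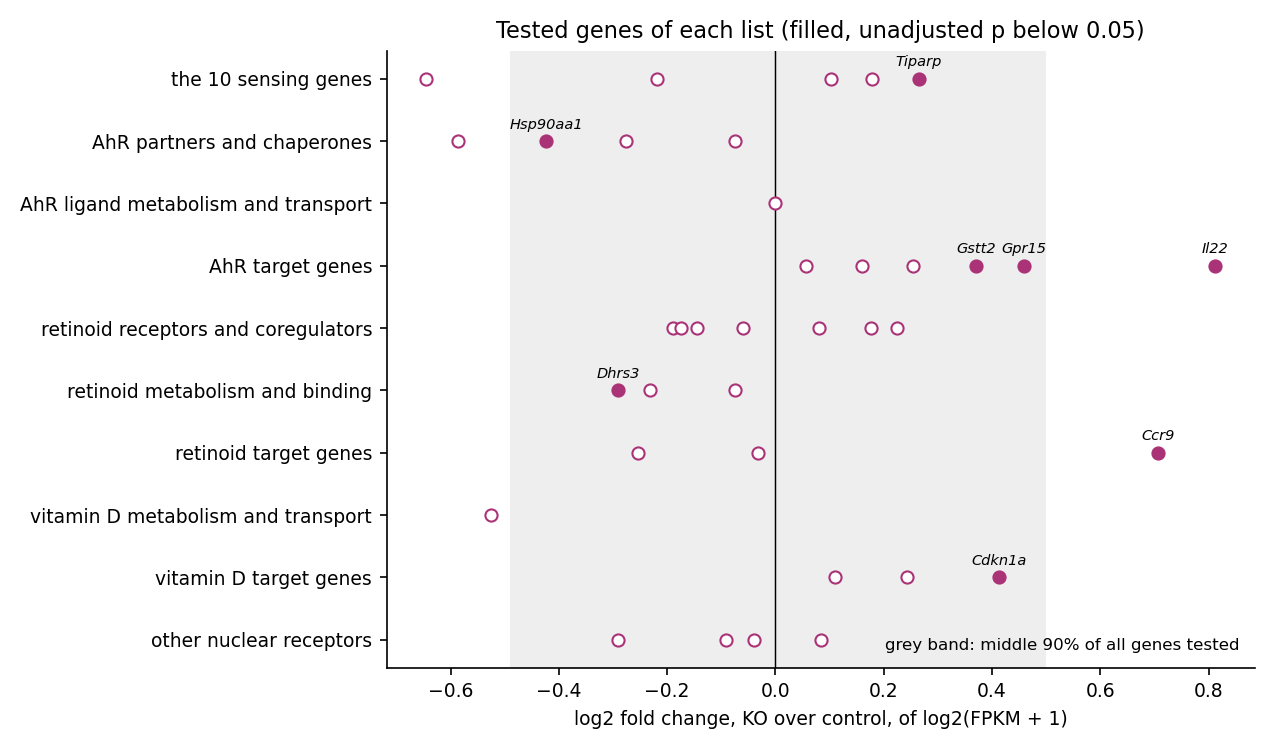
log2 fold change of KO over control (log2 of FPKM + 1) for the tested genes of each list, a row a list, filled where the unadjusted p was below 0.05, with a grey band from the 5th to the 95th percentile of all genes tested (-0.49 to 0.50). *Il22* and *Ccr9* lie to the right of the band. *Rara*, the leftmost of the tested sensing genes, lies to its left, as do *Src* and *Dhcr7*. *Tiparp* lies inside the band. *Src* was named after its values were seen.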

How the data were processed

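The data are RNA-seq of sorted LI Treg cells. Per the study's methods, poly(A) RNA was sequenced as paired reads, aligned to GRCm38 with STAR and quantified with RSEM at its default settings, which do not use strand (STAR 2.5 and RSEM 1.2 per the submitters' processing notes). The authors deposited 1 table of FPKM per gene and library with 2 decimals. Its nearly identical distributions across libraries show a further normalization to nearly 1 common distribution, which is not described. FPKM cannot take a count test, so limma 3.58.1 (R 4.3.3; lmFit, eBayes with trend) was fitted to log2(FPKM + 1) over 7639 protein-coding genes whose mean exceeded 5 FPKM in at least 1 group, with Benjamini-Hochberg adjustment over all of them. Fold changes on this scale understate those of low genes. Each library is a pool of 2 to 3 mice. The p-values rest on the spread between pools, drawn for each gene toward a trend over all genes tested, and not on the spread between single mice. Intervals assume this fit and no depth is known.

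Gene types and coordinates come from GENCODE M21 (GRCm38), which held 53274 of the 53379 identifiers, and upstream sequences from RefSeq (GRCm38.p6). The genes, lists and tests were chosen with earlier results of these data known. All 10 genes are reported. From the other lists, 1 gene is not reported here and was left out of their counts. From each other list, genes at an adjusted p below 0.05, or the 3 with the smallest p among those below 0.05 unadjusted, are named. Alternatives were pseudocounts of 0.1 and 5, a filter at 1 or none, all gene types, rescaling to a sum of 1000000, median centring, quantile normalization, no trend, a replicate block, each library left out and, added after the data were seen, a crossed pairing. Rescaling, median centring and quantile normalization could move the fold changes little, as the libraries already had nearly the same distribution. On simulated data with 200 of 7639 genes changed by 1 on the log2 scale, the fit called 211 genes, 200 of them changed, with a median estimate of 0.99. The simulated spread followed the mean alone, without the differences in spread between genes of the data. This result therefore does not measure the power of the fit for the genes reported here. Figures were drawn with matplotlib 3.10.9.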

Additional observations from a re-analysis of the deposited data

How the results depend on the processing

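No setting called any of the 10 genes at an adjusted p below 0.05. Adjusted p ranged from 0.107 to 0.727 for *Tiparp*, from 0.0762 to 0.839 for *Rara* and from 0.280 to 0.796 for *Ahr*. *Tiparp*, called higher at an unadjusted p below 0.05, was not called without the trend (0 genes called) or with the replicate block (0), nor without control 2, KO 1 or KO 2, so that 0 to 1 were called with a library left out. *Rara* was called lower with the crossed pairing (1 gene) and without control 1 or KO 1 (0 to 1 with a library left out). With a library left out, the log2 fold change ranged from -0.17 to 0.52 for *Ahrr*, negative without control 2 (-0.17) and KO 2 (-0.03), and from -0.10 to 0.30 for *Arnt*, negative without control 1 (-0.05) and KO 1 (-0.10). Of the other lists, at an unadjusted p below 0.05, 5 genes higher became 10 with no filter and 3 to 5 with a library left out, and 2 lower became 4 with no filter, 1 with all gene types, 1 with the replicate block, 4 with the crossed pairing and 1 to 4 with a library left out. At an adjusted p below 0.05, 0 higher became 4 with the crossed pairing (*Il22*, *Ccr9*, *Gpr15* and *Cdkn1a*).

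Over all genes, 24 called higher by adjusted p became 0 with no filter, 5 with all gene types, 1 without the trend, 15 with the replicate block, 240 with the crossed pairing and 1 to 23 with a library left out (1 without KO 1 or KO 2). The 21 called lower became 11 at a mean above 1, 0 with no filter, 8 with all gene types, 2 without the trend, 12 with the block, 225 with the crossed pairing and 1 to 20 with a library left out (1 without KO 1, 2 without KO 2). By unadjusted p, 658 higher became 1170 with no filter, 419 with the block, 1008 with the crossed pairing and 332 to 643 with a library left out, and 578 lower became 377 with the block, 983 with the crossed pairing and 312 to 604 with a library left out. The cause of these shifts was not tested. The replicate numbers of the titles state no shared source, and the deviations of same-numbered libraries correlated at r = -0.305 over genes. With 2 libraries a group, this value cannot settle whether same-numbered libraries share a source. Pairing is therefore unknown, and the block is given here alone. The crossed pairing (control 1 with KO 2, control 2 with KO 1) was chosen after seeing the data. With depth unknown, no counting interval can be given for *Cyp1a1*, *Cyp1b1*, *Rarg*, *Rxra* and *Vdr*.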

Other observations

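Some annotated transcripts overlap the sensing genes, and reads from the shared stretches could be counted to either; strand, which the counting did not use, would separate those on the other strand but not those on the same strand. They were picked after their values were seen and were not tested. *Gm48236*, a long noncoding RNA on the other strand that overlaps the start of *Ahr* (chr12:35534421-35590446), was 0.58 and 0.25 FPKM in control and 2.40 and 2.10 in KO, higher in both KO libraries, whereas *Ahr* was lower in both. *4931440P22Rik*, a transcribed pseudogene on the other strand over the start of *Tiparp* (chr3:65507257-65529379), was 1.22 and 2.53 FPKM in control and 3.25 and 3.59 in KO, in the same direction as *Tiparp* and far below it. *Gm42672*, a pseudogene on the same strand inside *Arnt* (chr3:95461191-95461542), was 6.58 and 2.03 FPKM in control and 1 and 1.2 in KO, highest in the library where *Arnt* was lowest.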
